A study of Mus musculus with 11 samples.

Results

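Coactivators are proteins that transcription factors bring to DNA, and the acetyl groups that some of them place on histones are read by others. The 9 genes described here encode such proteins. Crebbp and Ep300 encode the paralogous acetyltransferases Cbp and p300, which acetylate histone H3 at lysine 27 (H3K27ac). Kat2a encodes the acetyltransferase of the SAGA complex, and Kat6a a MYST family acetyltransferase that works with the scaffold Brpf1. Brd2 and Brd3 belong to the BET family, whose bromodomains bind acetylated histones. Med1 is a subunit of Mediator, which links activators to RNA polymerase II, and Cdk9 is the kinase of P-TEFb, which releases paused polymerase into elongation. All peaks that overlapped one of these genes or the 5 kb beyond either of its ends (mm10) were taken, for 9 genes of 21631 protein-coding genes on chromosomes 1 to 19 and X.

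The peaks came from CUT&RUN, which cuts out and sequences the DNA around an antibody bound to its target in permeabilised cells. There were 11 libraries from 2 mouse tumour-derived cell lines, M00002 and M00001, which express an HA-tagged fusion written CRfus1 in the labels; the series title names ZFTA-RELA and supratentorial ependymoma, a brain tumour. ZFTA-RELA joins a zinc finger protein to RELA, the NF-kappaB subunit also called p65. M00002 had HA, IgG, p65 and H3K27ac with the antibodies ac4729 and ac647. M00001 had HA, IgG, Cbp, p300 and the polymerase II subunit Rpb1 with antibodies written S2 and S5. Serine 2 and serine 5 phosphorylation of the Rpb1 tail are known from elongating and initiating polymerase. Both lines were untreated and grew on Matrigel in neural basal medium with B27, N2, bFGF and EGF. Each line is 1 culture, no line without the fusion was analysed here, and expression was not measured, so the origin of the lines was not checked by marker genes.

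The lists held from 1592 (IgG of M00001) to 29937 (HA of M00002) peaks on the chromosomes used, and read depth is unknown. With 1 library per target and line there is no replicate error and no test. Each value below describes these libraries, and no difference between genes, targets or lines carries a p-value. Fold enrichment is the peak caller's ratio over its background and is the authors' value. It is ranked here only within its own list. The antibody to p65 may also recognise the fusion, which contains RELA; the overlap of p65 with HA cannot tell the 2 proteins apart.

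The sequences around 4 starts come first, because the peaks described below lie on or beside them. They are from RefSeq on GRCm38.p6, the assembly behind mm10, read 5′ to 3′ on the strand of the gene, and hold only bases before the listed start. Capitals mark the GC box GGGCGG, the site known for the Sp1 family, and CCAAT, the site known for NF-Y. The first pair is the promoter of each profiled acetyltransferase, Ep300 (chr15:81585964-81586213, plus strand) and Crebbp (chr16:4213405-4213654, minus strand). No HA or p65 peak overlapped either stretch of this pair. The stretch of Med1 (chr11:98192907-98193055, minus strand) is what the HA peak of M00002 covered upstream of its start. The stretch of Brd2 (chr17:34122693-34122857, minus strand) was covered by HA peaks of both lines.
Ep300: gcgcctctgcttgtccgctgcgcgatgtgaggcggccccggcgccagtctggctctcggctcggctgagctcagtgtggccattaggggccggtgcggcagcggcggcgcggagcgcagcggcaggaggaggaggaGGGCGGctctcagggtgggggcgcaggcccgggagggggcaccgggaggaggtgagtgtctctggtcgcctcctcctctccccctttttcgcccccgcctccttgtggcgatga
Crebbp: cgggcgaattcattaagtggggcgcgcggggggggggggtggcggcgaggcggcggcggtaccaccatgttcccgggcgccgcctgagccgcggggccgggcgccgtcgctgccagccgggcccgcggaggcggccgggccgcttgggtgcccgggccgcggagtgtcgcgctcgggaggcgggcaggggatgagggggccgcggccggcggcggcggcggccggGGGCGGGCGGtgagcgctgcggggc
Med1: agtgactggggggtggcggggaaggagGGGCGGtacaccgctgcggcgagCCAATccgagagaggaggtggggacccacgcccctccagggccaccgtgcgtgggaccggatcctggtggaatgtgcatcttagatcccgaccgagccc
Brd2: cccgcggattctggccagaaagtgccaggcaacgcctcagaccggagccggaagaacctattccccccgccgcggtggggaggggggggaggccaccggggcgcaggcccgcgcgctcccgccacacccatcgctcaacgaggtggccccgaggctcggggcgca

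The Crebbp promoter was the richer of the paralogues in G and C, at 84.0% against 73.2% for Ep300, and the median of all 32851 listed promoters was 52.4%. The Med1 stretch under HA was 69.1% and the Brd2 stretch 74.5% G and C. Of the 10 listed promoters of 8 members (3 for Brd2; 250 bases before to 50 after the start), 8 held the GC box on either strand, against 35.7% of all listed promoters. Kat2a and a Brd2 promoter were without it, and the Kat2a promoter was 48.8% G and C. CCAAT was found in 2, those of Cdk9 and Med1, against 37.4% of all. The Ets site CCGGAAGT was found at Cdk9 (3.89% of all promoters), and the site of NRF1 at a Brd2 promoter (4.60%). The cAMP response element TGACGTCA was in 0 of the 10 promoters (1.79% of all), and the kappaB motif, the binding site of NF-kappaB, in 0 (4.51%). Each motif was searched on both strands, and these letters say nothing about sites outside the window. All HA and p65 peaks at Ep300, Crebbp, Kat2a, Brpf1 and Cdk9 lay outside it, so their sequences were not searched. The GC box consists of G and C, the bases in which most of these promoters are rich, and the part of base content in its count was not tested.

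HA peaks lay at all 9 members in M00002 and at 7 in M00001, where Crebbp and Kat2a had none. Among all genes the shares were 50.2% in M00002 and 22.8% in M00001. The 7 members had HA in both lines, as did 20.4% of all genes, and in all 7 HA was free of overlap with IgG of the same line (19.9% of all genes). At 6 of them, all but Med1, the HA peaks of both lines overlapped each other, against 16.2% of all genes. IgG gave 1 peak in M00002, inside Crebbp, and 0 in M00001; the shares of all genes were 11.2% and 3.49%. No HA peak at any member overlapped IgG of either line.

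In M00002, p65 lay at 8 members, all but Crebbp (33.5% of all genes). H3K27ac lay at 9 members with ac4729 (50.9%) and at 7 with ac647 (29.2%), where Kat6a and Med1 had none. Both antibodies gave a peak at these 7, against 27.7% of all genes. In M00001, S2 lay at 8 members, all but Brd2 (56.3% of all genes), and S5 at 7, all but Kat2a and Cdk9 (33.9%).

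The products of Crebbp and Ep300 were themselves profiled, and neither gene had a Cbp or p300 peak. Cbp lay at 3 members, Brpf1, Brd2 and Med1 (13.1% of all genes), and p300 at 3, Brpf1, Brd2 and Brd3 (15.8%).

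**Figure D1:**
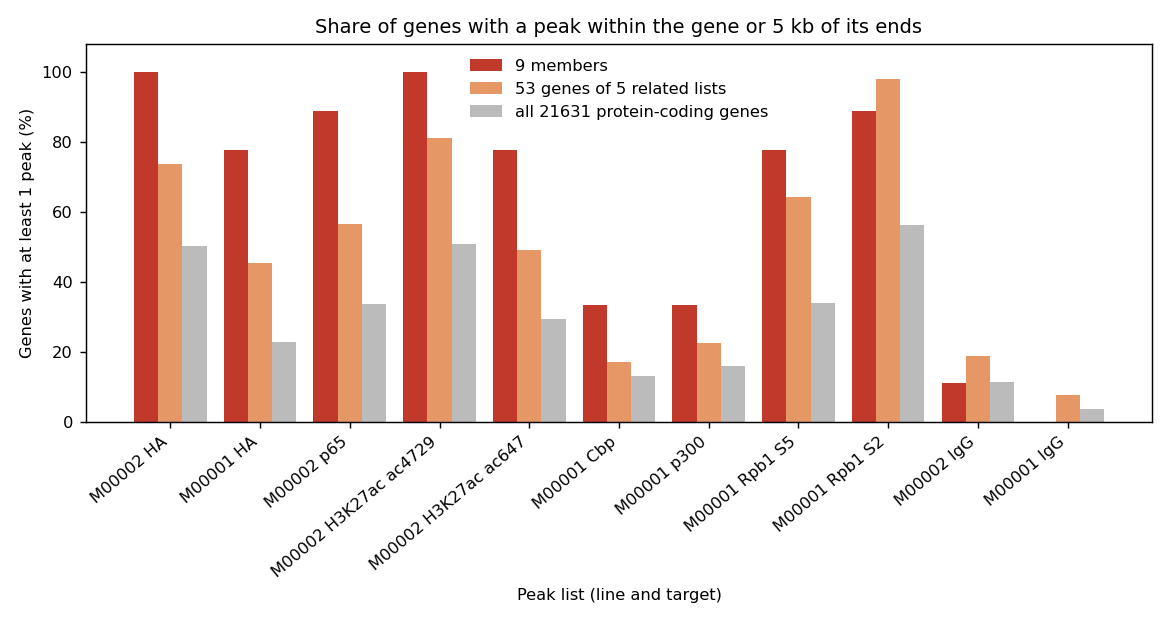
Share of genes with at least 1 peak within the gene or 5 kb of its ends, in percent, for each of the 11 lists. Red bars are the 9 members, orange bars the 53 genes of 5 related lists and grey bars all 21631 protein-coding genes; HA of M00001 lay at 7 of 9 members and at 22.8% of all genes.

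The members differed widely in length, and 8 of 9 carried S2. Cdk9, Kat2a and Brd2 were shorter than the median gene. The members' median length was 41160 bp (from 7003 to 132624 bp) against 17329 bp for all genes. Among the 13783 genes within the members' range of length, 55.0% had HA in M00002, 24.4% in M00001, 21.7% in both lines, and 36.0% had p65, a few percentage points above the shares of all genes at most. Among the 12175 genes with an S2 peak the shares were higher, at 68.7%, 34.9%, 32.2% and 48.3%. The 8 members with S2 had HA in 8, 6 and 6 cases and p65 in 7. The part of length and of polymerase in the members' counts was not tested.

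Some windows also hold the start of another gene, so each peak was placed against the listed starts. Of the 19 HA peaks of M00002 at members, 8 lay within 1 kb of a start for which the nearest belonged to the member and 4 for which it belonged to a neighbour. Of the 10 HA peaks of M00001 the counts were 4 and 4. Counting every peak within 1 kb of a member's own start, in the 8 members with a listed start, HA of M00002 lay at 7, all but Kat2a (25.5% of the 17274 genes with a listed start). HA of M00001 lay at 4, Ep300, Brpf1, Brd2 and Cdk9 (10.6%). There p65 lay at 6 of the 8, all but Crebbp and Kat2a (15.3%), and S5 at 5, Crebbp, Ep300, Brpf1, Brd2 and Brd3 (22.4%). Ep300, Brpf1, Brd2 and Cdk9 thus had an HA peak at their own start in both lines. Brd3 and Med1 had it there in M00002 only, with HA of M00001 elsewhere in the window, and Kat6a has no listed start.

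**Figure D2:**
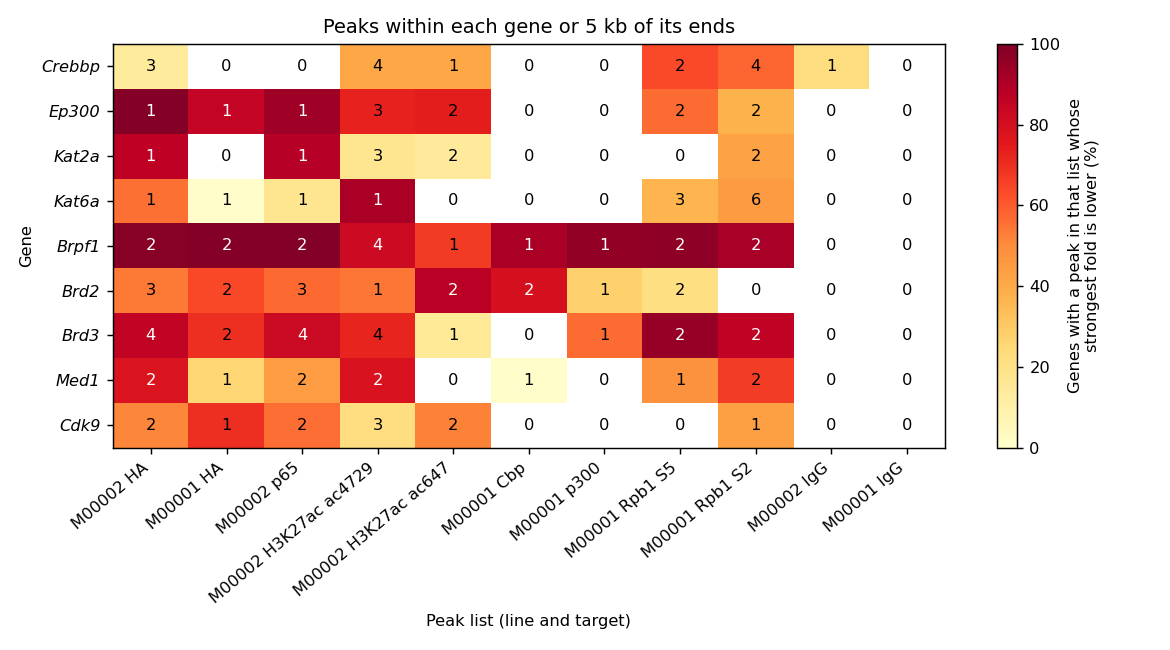
Peaks at each member (rows) in each of the 11 lists (columns). Numbers are peaks within the gene or 5 kb of its ends, and colour is the percentage of genes with a peak in that list whose strongest fold is lower; white means no peak. Brpf1 stands in the upper ranks of HA, p65, Cbp and p300, Crebbp in the lower ranks of HA in M00002 with no HA in M00001, and the 1 IgG peak is at Crebbp.

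At Ep300 a strong HA site lay in front of the gene in both lines. The HA peak of M00002 (chr15:81585035-81585415, intergenic, 799 bp upstream of the listed start) had a fold of 23.6 and −log10 q of 59.2, and stood at rank 207 of 29937. HA of M00001 (chr15:81585114-81585357) had a fold of 8.91 and −log10 q of 14.3, rank 914 of 8504. The p65 peak of M00002 had a fold of 15.0 and stood at rank 581 of 15711. So all 3 lists placed the same site among their stronger peaks, with 99.3%, 89.2% and 96.3% of the list lower. S2 (fold 4.52) and S5 (fold 4.74) also had a peak there.

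H3K27ac flanked this Ep300 site. With ac4729 a peak of fold 4.20 ended on its far side and a peak of 1098 bp and fold 5.61 began on its near side and ran over the start. With ac647 the flanking folds were 3.47 and 5.91. The HA summits of both lines fell in the gap between the acetylated peaks, with either antibody. A further S5 peak of fold 3.73 lay 139 bp upstream of the start, over the promoter sequence printed above. Inside the gene there were only 1 weak ac4729 peak (fold 2.98) and 1 weak S2 peak (fold 2.53).

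Crebbp, the paralogue, had no such site. HA of M00002 gave 3 narrow peaks with folds of 2.99, 3.74 and 2.99 and −log10 q of 0.483, 1.46 and 0.483, the lowest part of the list (3.85%, 26.3% and 3.85% of its peaks were lower). HA of M00001, p65, Cbp and p300 gave 0 peaks. The HA peak of fold 2.99 nearest the start (chr16:4213952-4214049, 548 bp upstream of the listed start, at the outer edge of the gene record) overlapped S2 (fold 4.68) and S5 (fold 4.11). Polymerase was thus present in front of both paralogues, at similar folds, while HA was strong at Ep300 only in these libraries; whether the genes differ was not tested.

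H3K27ac with ac4729 lay just inside the Crebbp start (fold 4.29, 8 bp downstream) and at 2 places within the gene (folds 3.32 and 4.49). The only ac647 peak (chr16:4182689-4183380, fold 4.50, 30024 bp downstream of the start) overlapped the ac4729 peak of fold 4.49 and the IgG peak of M00002 (chr16:4182809-4182950, fold 3.34, −log10 q of 0.282). The acetylation shared by both antibodies at Crebbp therefore sits on the IgG peak, and without peaks that overlap IgG the number of members with both antibodies was 6 (27.1% of all genes). A further ac4729 peak (fold 3.96), the strongest S2 peak (fold 5.49) and the strongest S5 peak (fold 5.06) in the Crebbp window covered the start of Trap1, which encodes a mitochondrial chaperone, and not Crebbp.

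**Figure D3:**
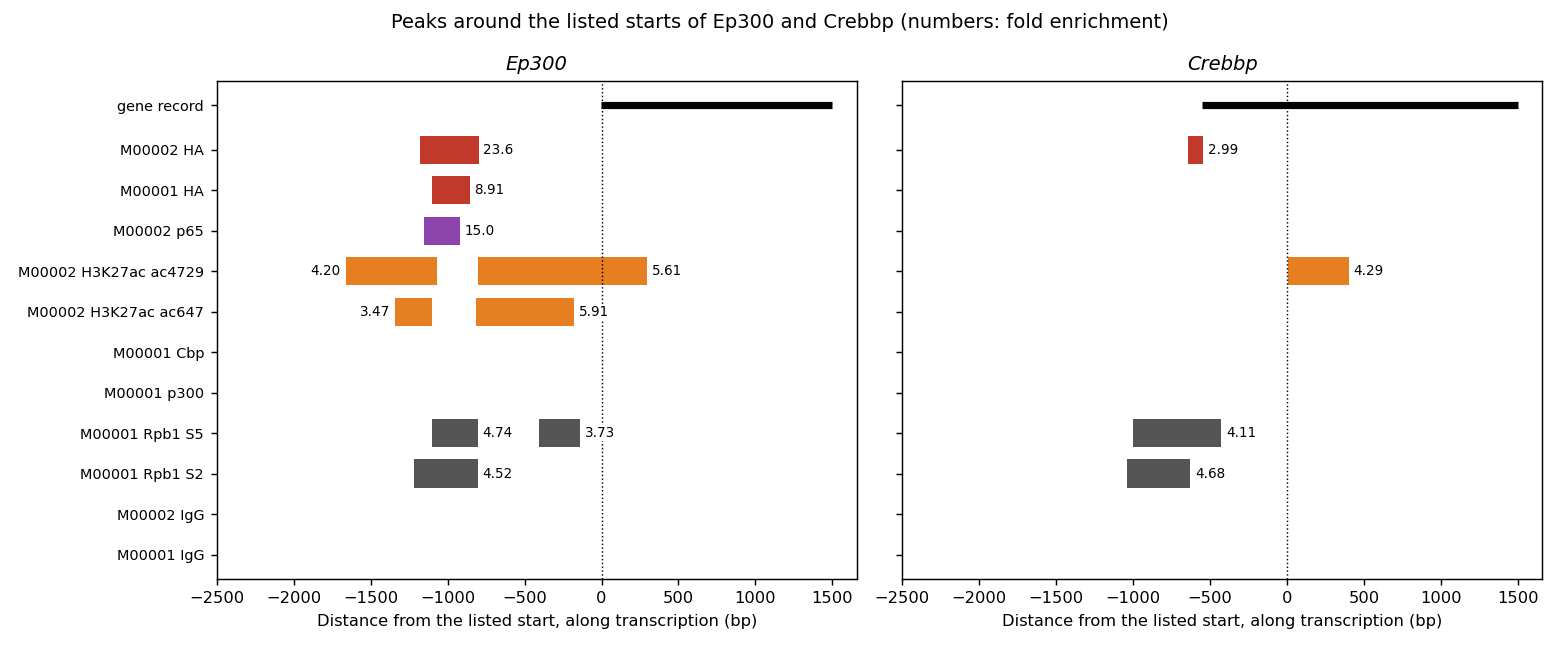
Peaks of the 11 lists around the listed starts of Ep300 (left) and Crebbp (right), by distance from the start in bp along the direction of transcription; bars span each peak, numbers give its fold enrichment, the black line is the gene record and the dotted line the listed start. HA of both lines lies in front of Ep300 with folds of 23.6 and 8.91, between acetylated peaks, whereas Crebbp has in the span drawn 1 HA peak of fold 2.99 in M00002 and none in M00001.

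Among the other acetyltransferase genes, Kat2a had an HA site that lay in a neighbour. The only HA peak of M00002 (chr11:100702110-100702710, fold 14.1, −log10 q of 28.9, rank 1800) was 9757 bp downstream of the Kat2a start and 2036 bp beyond the gene, inside Dhx58, which encodes an RNA helicase of the RIG-I family. The p65 peak at the site had a fold of 12.5. H3K27ac with ac4729 (folds 3.80 and 3.30) lay on either side of the HA summit, ac647 (fold 3.66, 1213 bp) ran across it, and S2 (fold 3.71) overlapped it. Nearer to Kat2a there were further peaks of ac4729 (3.38) and ac647 (2.98), still outside the gene. HA of M00001 gave no peak in the window. At the Kat2a start itself the only list with a peak was S2 (chr11:100712024-100712543, fold 4.77). Kat2a was counted among the members with HA, p65 and H3K27ac by the Dhx58 region alone.

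Kat6a has no listed start, so its peaks were placed against the gene record. HA of M00002 (chr8:22859217-22859418, fold 7.09, −log10 q of 7.02) ended 24 bp outside the low-coordinate end of the gene. HA of M00001 there was near the floor of its list, with a fold of 2.98 and −log10 q of 0.110, and overlapped the peak of M00002 by 46 bp, or 22.8% of the shorter peak. The p65 peak was also weak (fold 3.93, −log10 q of 1.66). The ac4729 peak just inside the gene (chr8:22859548-22859773) was the highest ranked of that list at the 9 members, with a fold of 6.91 and rank 1023 of 29409, and did not overlap HA. Kat6a had more S2 peaks than any other member, 6, from fold 2.46 to 4.89, of which the strongest lay at the same end; S5 had 3, of folds 4.14, 3.37 and 3.70.

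Brpf1, the scaffold of Kat6a, had peaks of 8 of the 11 lists at a site in front of its start, between Brpf1 and Cpne9. HA had a fold of 22.3 in M00002 (chr6:113306344-113306835, 302 bp upstream of the start, rank 277) and 17.6 in M00001 (chr6:113306351-113306841, rank 130 of 8504). The p65 peak had a fold of 22.3 (rank 107), p300 7.88 (rank 303 of 6054) and Cbp 5.77 (rank 518 of 5847). The HA peaks of both lines and p65 had nearly the same borders, with p65 at chr6:113306350-113306841. An HA peak overlapped both Cbp and p300 at Brpf1 and Brd2 and at none of the other 7 members.

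Polymerase at this Brpf1 site had folds of 8.22 (S2) and 8.52 (S5), the highest of any member in each list. Acetylation was weaker. With ac4729 folds of 3.21 and 3.91 lay on either side of the HA summits of both lines, and ac647 gave no peak there. A further site in the Brpf1 window belongs to Ogg1, which encodes a DNA glycosylase that removes oxidised guanine. HA (folds 13.1 in M00002 and 5.54 in M00001), S2 (7.50) and S5 (6.57) covered the Ogg1 start, with p65 (7.42), ac4729 (6.11) and ac647 (5.47) beside it and no Cbp or p300. The Ogg1 site thus had more H3K27ac and less HA than the Brpf1 site by rank within each list.

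Both BET genes had several HA peaks with p65. Brd2 has 3 listed starts on the minus strand and overlaps H2-DMa, which encodes a chaperone of MHC class II peptide loading. HA of M00002 had 3 peaks with folds of 4.15, 5.12 and 6.75, and p65 had 3 at the same places with folds of 5.20, 3.79 and 6.62. HA of M00001 had 2, with folds of 5.00 and 6.17. The strongest in both lines (chr17:34122685-34122914 and chr17:34122693-34122914) was the site whose sequence is printed above. It lay 78 and 86 bp upstream of the outermost Brd2 start and covered the start of H2-DMa, so that the 2 divergent genes cannot be told apart. H3K27ac did not overlap it with either antibody.

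Downstream of that site, Brd2 had the broadest acetylated region of the 9 members. The ac647 peak spanned 1899 bp (chr17:34120499-34122397, fold 7.16, rank 1209 of 15975) and ac4729 1162 bp (fold 4.89), both over the listed start at 34121747. HA of both lines (5.12 and 5.00), p300 (fold 3.55, 827 bp) and Cbp (fold 3.46, 2 bp downstream of the start) lay within or over it, as did an S5 peak of fold 3.71. A weaker S5 peak of fold 3.14 lay near the innermost start. These Cbp and p300 peaks were weak in their lists, with 55.4% and 33.4% of peaks lower. Brd2 was the only member without an S2 peak. A second Cbp peak of fold 4.46 lay 12131 bp downstream of the nearest Brd2 start, outside the gene, with no other list.

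Brd3 had 4 HA peaks in M00002, with folds of 10.4, 5.70, 6.93 and 13.5. The strongest (chr2:27505618-27505804) lay 30220 bp upstream of the listed start. It was inside the gene record, 1853 bp from the upstream end of that record on the minus strand. It overlapped HA of M00001 (fold 6.74), p65 (10.8) and ac4729 (5.57). No start is listed there and neither S2 nor S5 had a peak. The listed start had another composition. HA of M00002 (fold 6.93) was 235 bp upstream, beside p65 (4.11 and 6.17), p300 (4.08), ac4729 (3.73), S2 (7.50) and S5 (8.08, rank 439 of 10451), and HA of M00001 gave no peak. The HA peak of fold 10.4 lay 3080 bp beyond the end of Brd3. With HA of M00001 (5.75), p65 (9.19), S2 (7.35) and S5 (6.06), it covered the start of the neighbouring gene Brd3os. The HA peak of fold 5.70 lay 4878 bp downstream of the start with ac4729 (3.59), and ac647 had its only peak (3.71) beside it. HA of both lines was therefore found around Brd3 at a site near the upstream end of its record and at Brd3os. At its listed start HA was found in M00002 only.

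**Figure D4:**
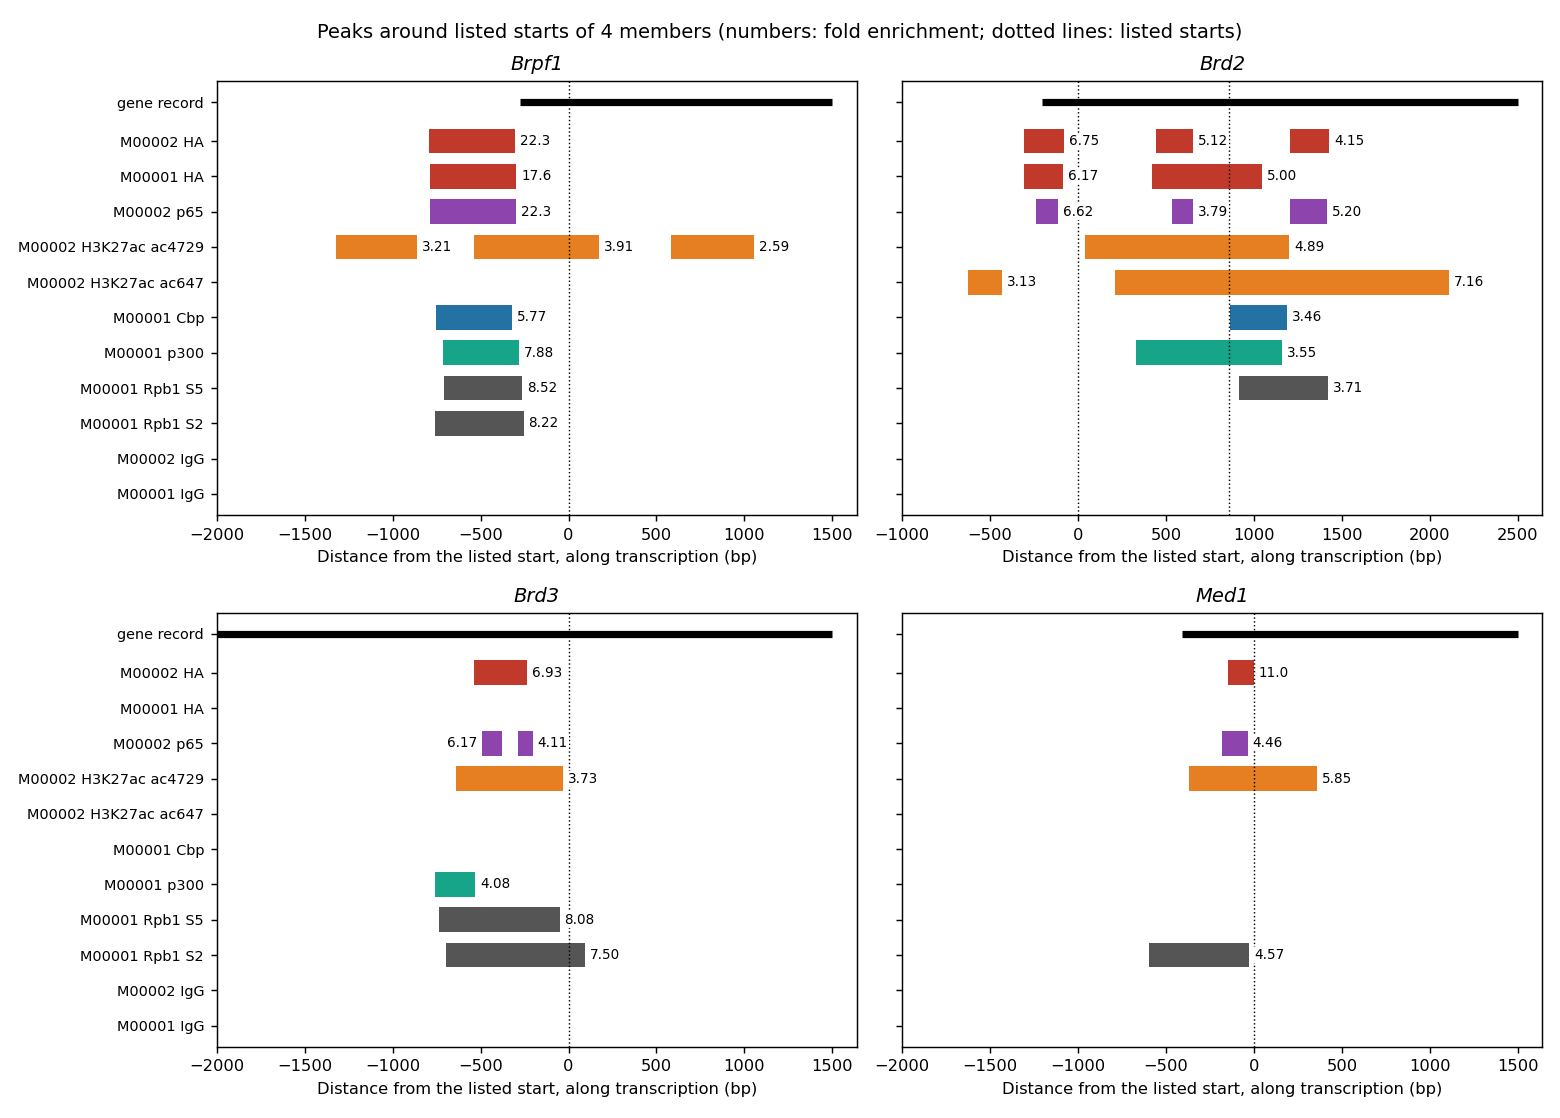
Peaks of the 11 lists around the listed starts of Brpf1, Brd2 (outermost start), Brd3 and Med1, by distance in bp along the direction of transcription; bars span each peak, numbers give its fold enrichment, the black line is the gene record and dotted lines are listed starts. HA and p65 of M00002 lie in front of or on every start shown, HA of M00001 is absent at the listed starts of Brd3 and Med1, and Cbp is present at Brpf1 and Brd2.

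Med1 carried HA on its start in 1 line. The peak of M00002 (chr11:98192906-98193055, fold 11, −log10 q of 15.0) covered the listed start and the Med1 stretch printed above, with its GC box and CCAAT. It overlapped p65 (fold 4.46), ac4729 (5.85) and S2 (4.57). HA of M00001 gave no peak there; its only peak in the window (fold 3.98, −log10 q of 1.52) lay 73 bp downstream of the start of Fbxl20, which encodes an F-box protein. HA of M00002 (4.39), p65 (5.50), S2 (5.95) and S5 (4.49) lay upstream of the Fbxl20 start and did not overlap that peak. The Cbp peak inside Med1 had a fold of 2.75 and −log10 q of 0. Without peaks of −log10 q below 5 the number of members with Cbp was 1, Brpf1 (1.64% of all genes).

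Cdk9, the shortest of the 9 genes, had HA just inside its start in both lines. The peaks had folds of 6.53 in M00002 (chr2:32712318-32712399, 385 bp downstream) and 6.72 in M00001 (chr2:32712146-32712382, 402 bp downstream). p65 (fold 6.57), ac4729 (3.85) and ac647 (4.85) overlapped them. A second site 2181 bp upstream of the start had HA of M00002 (6.56), p65 (6.12), ac4729 (4.00) and ac647 (4.11), and no HA of M00001. A further ac4729 peak (3.88) lay between these sites, 663 bp upstream. For this peak and for the HA peak of the second site the nearest listed start was that of Gm33457, at 137 and 1655 bp. S2 covered the Cdk9 start and that of Gm33457 in 1 peak of 1341 bp (fold 4.81), so it cannot be given to 1 of them. S5, Cbp and p300 gave no peak. The promoter with the CCAAT, GC box and Ets letters was thus overlapped by S2 alone. HA lay inside the gene in both lines and, in M00002, also upstream of the promoter.

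**Figure D5:**
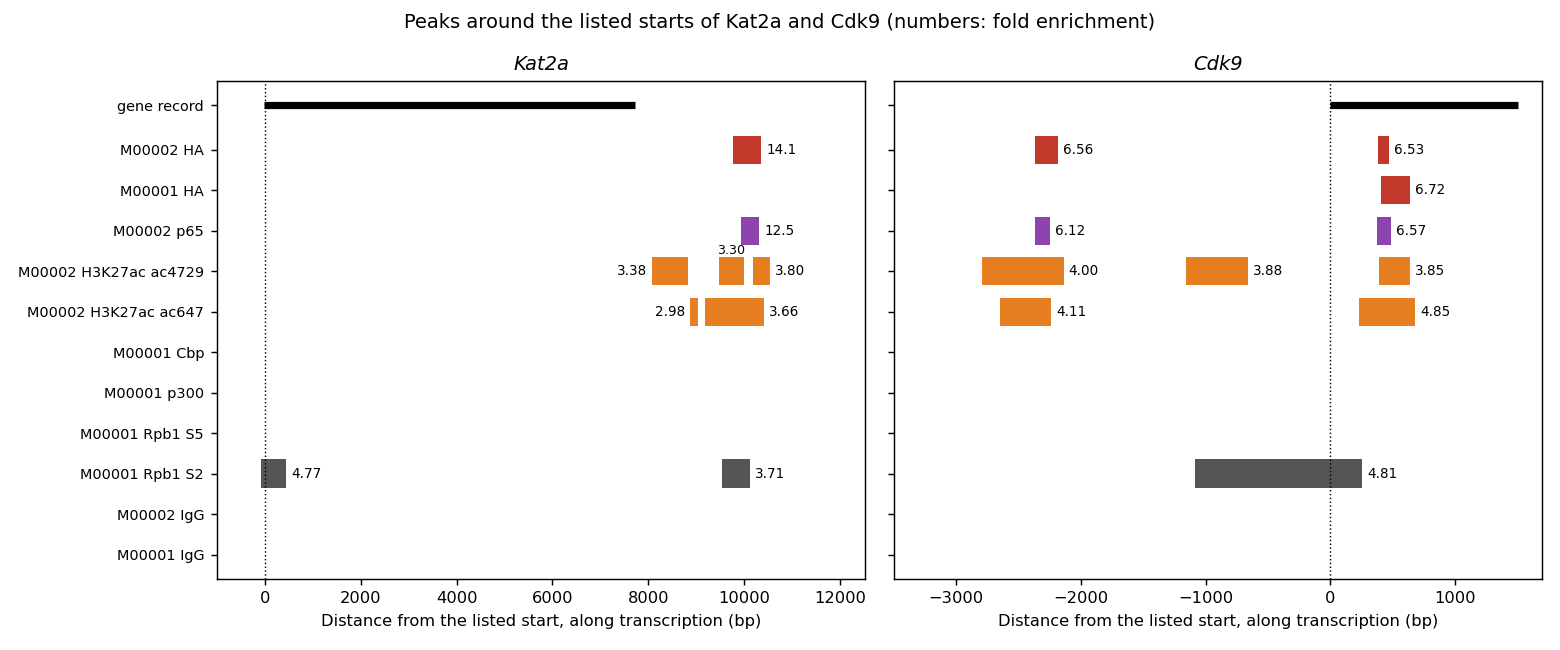
Peaks of the 11 lists around the listed starts of Kat2a (left) and Cdk9 (right), drawn as distance in bp along the direction of transcription; bars span each peak, numbers give its fold enrichment, the black line is the gene record and the dotted line the listed start. At Kat2a all peaks except 1 of S2 lie beyond the gene, and at Cdk9 HA of both lines lies 385 and 402 bp inside the start.

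Overlap of the members' HA peaks with other lists is given beside that of the whole HA list, which also holds peaks far from any gene; no test was made. Of the 19 HA peaks of M00002, 15 overlapped p65 (78.9% against 33.7% of the whole list), 11 ac4729 (57.9% against 37.0%), 7 ac647 (36.8% against 22.3%) and 9 HA of M00001 (47.4% against 16.9%). S2 of the other line overlapped 10 (52.6% against 23.0%) and S5 9 (47.4% against 13.5%). Of the 10 HA peaks of M00001, 9 overlapped HA of M00002 (90.0% against 55.4%) and 9 p65 (90.0% against 47.4%). They overlapped ac4729 in 7 cases (70.0% against 48.2%) and ac647 in 3 (30.0% against 39.1%), S2 in 5 (50.0% against 43.2%) and S5 in 5 (50.0% against 30.0%). Cbp overlapped 1 HA peak of M00002 (5.26% against 4.37%) and 2 of M00001 (20.0% against 17.1%). For p300 the counts were 3 in M00002 (15.8% against 7.96%) and 2 in M00001 (20.0% against 23.2%). In both HA lists the members' share was thus above that of the whole list for p65, HA of the other line, ac4729, S2 and S5. For S2 in M00001 the margin was narrow. For Cbp it was narrow in both lists and rested on 1 and 2 peaks. For ac647 and p300 the members' share lay on different sides in the 2 HA lists. The 9 overlapping pairs of HA peaks lay at 6 members, and all 9 had p65 on the peak of M00002. The 4 HA peaks of M00002 without p65 were the 3 of Crebbp and 1 inside Brd3 (fold 5.70).

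Summits were placed against the acetylated peaks and p65 in the same way. Of the 19 summits of M00002, 7 were inside an ac4729 peak (32.4% of the whole list) and 5 inside an ac647 peak (17.7%), whereas 14 were inside a p65 peak (31.2%). At Ep300, Kat2a and Brpf1 the summit lay outside ac4729 with an ac4729 peak within 1 kb on each side, 3 of 19 against 1.88% of the whole list. These were the 3 members with the highest HA folds in M00002, Kat2a by the site in Dhx58. The margin at Brpf1 was slight, with the summit at 113306595 and an ac4729 peak that began at 113306598. With ac647 the summit lay between 2 such peaks at Ep300 and Brd2, 2 of 19 against 2.23%. The Kat2a summit lay inside an ac647 peak.

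Other genes of the same machinery were taken from 5 lists with 53 genes and a median length of 52363 bp. HA lay at 39 of the 53 in M00002 (73.6% against 50.2% of all genes) and at 24 in M00001 (45.3% against 22.8%). The counts were 30 for p65 (56.6% against 33.5%) and 52 for S2 (98.1% against 56.3%). For Cbp the count was 9 (17.0% against 13.1%) and for p300 12 (22.6% against 15.8%). IgG lay at 10 in M00002 (18.9% against 11.2%) and at 4 in M00001 (7.55% against 3.49%), so it too was above the share of all genes. HA free of IgG in both lines was found at 22, or 41.5% against 19.9% of all genes. These were 4 of 9 acetyltransferases, 8 of 15 acetyl readers and 3 of 10 Mediator subunits. They also held 3 of 10 genes of P-TEFb and elongation, and 4 of 9 deacetylases and corepressors. The genes that remove acetyl groups thus had HA about as often as those that place or read them.

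Some of the up to 4 genes per list with the highest HA ranks are named here, all with HA free of IgG in both lines. The rank is against the other genes of the same list, and Ncoa2, Supt5 and Aff1 were weak in both lines. Among readers, Mllt1 had HA folds of 15.9 in M00002 and 8.26 in M00001, Pbrm1 17.6 and 7.27, and Brpf3 9.10 and 6.31. Among acetyltransferases, Kat7 had folds of 10.2 and 6.73, Kat5 6.87 and 7.99, Kat6b 10.8 and 5.28, and Ncoa2 3.58 and 3.48. In Mediator, Med26, the subunit that recruits elongation factors, had 19.6 and 8.71, Med12 15.9 and 9.45, and Med14 6.64 and 5.47. The elongation genes were weaker, with Ccnt2, a cyclin partner of Cdk9, at 8.14 and 3.48, Supt5 at 3.74 and 3.69, and Aff1 at 2.99 and 3.98. Among deacetylases and corepressors, Hdac1 had 17.8 and 9.21, Rcor1 10.3 and 5.63, and Sin3a 8.59 and 5.15. Ep300 and Brpf1 stood above all of these in HA of M00002.

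For each member the 2 genes with the most similar pattern were named by the mean absolute difference of within-list rank (0 without a peak, up to 1 for the strongest gene) over the 11 lists. Ep300 was closest to Axin2 (0.0382) and D430019H16Rik (0.0425), against a median of 0.434 over all genes. Crebbp was closest to Itgb1 (0.0557) and Tex2 (0.0624; median 0.256), and no gene was nearest to both paralogues. Brpf1 was closest to Ak5 (0.0460) and Inpp5a (0.0475), with a median of 0.668, the highest of the 9. Brd2 was the least matched, with Pdlim7 at 0.0767 and Prdm11 at 0.107 (median 0.404). The nearest genes were Ap3d1 (0.0357) for Brd3, Map3k1 (0.0288) for Kat2a, Cops7b (0.0429) for Kat6a, Golph3 (0.0551) for Med1 and Plxna1 (0.0526) for Cdk9. The second were Garnl3 (0.0513), Hdac11 (0.0298), Marchf9 (0.0445), Pde4c (0.0598) and Cit (0.0567), in the same order. With 11 lists that share cells, this is a description of likeness only.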

How the data were processed

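CUT&RUN libraries of 2 mouse tumour lines, 5 from M00002 and 6 from M00001, were each deposited as 1 peak list in mm10, so peaks were called per sample. Trim Galore, FastQC, Bowtie2 2.3.5.1, MACS2 and deepTools were used, per the submitters' processing notes, which give no settings. Which control the peak caller had is not stated in the sources used here. For each peak the authors deposited a score, a fold enrichment (a ratio over the caller's background), −log10 p and −log10 q, and a summit position. In M00002 the names of the HA list and of the p65 list have a length mark of unstated meaning, which the other 9 lists lack. In M00001 a code of unstated meaning is shared by the titles of Cbp, p300, S2 and S5. The lists give no read counts, so depth is unknown and 1 library per target and line allows no interval or test.

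Peaks on chromosomes 1 to 19 and X were assigned with Python 3.11.15, numpy 2.4.6 and pandas 2.3.3 to genes of RefSeq GRCm38.p6 by overlap of at least 1 bp with the gene or 5 kb beyond it. Peak comparisons also used at least 1 bp. The assignment was tested on simulated peaks. Listed starts and sequences came from a RefSeq promoter table of GRCm38.p6, which matched 8 members. All 53 genes of the 5 other lists matched. Members and lists were chosen with earlier results of these data known. Named genes were all members, neighbours that share a peak, up to 4 genes per list ranked by HA free of IgG in both lines, and the 2 most similar genes per member. Some genes that this rule names are not reported here. Alternatives were gene windows of 1 and 25 kb, a minimum −log10 q of 5, the strongest 2000 peaks per list, removal of peaks over IgG, a 50% minimum overlap and, chosen after seeing the data, only peaks within 1 kb of the gene's own listed start.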

Additional observations from a re-analysis of the deposited data

How the results depend on the processing

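Counts of the 9 members were recomputed under each alternative, and 43 of 63 alternative values were within 1.5 times the count reported. Percentages are the share of all genes under the same alternative. With −log10 q of at least 5, both H3K27ac antibodies lay at 4 members (12.4%), Cbp at 1 (1.64%), p300 at 1 (2.93%), S5 at 3 (11.4%) and IgG at 0 (1.24%). Restriction to the 2000 strongest peaks of each list, which removes most peaks by construction, left HA of M00002 at 3 (7.15%), HA of M00001 at 4 (7.55%), HA of both lines at 2 (4.49%), overlapping HA of both lines at 2 (4.32%), p65 at 4 (7.04%), both H3K27ac antibodies at 0 (2.16%), p300 at 1 (5.93%), S2 at 2 (10.8%), S5 at 2 (9.47%) and IgG at 0 (7.57%). With windows of 25 kb IgG lay at 2 members (23.5%). Within 1 kb of a gene's own listed start, an alternative chosen after seeing the data, HA of M00001 lay at 4 of 8 members (10.6%), HA of both lines at 4 (9.47%), both H3K27ac antibodies at 3 (12.5%) and IgG at 0 (1.31%). HA of M00002 lay at 8 members (27.3%) at −log10 q of at least 5, without Crebbp, and with a 50% minimum overlap the HA peaks of both lines overlapped at 5 (15.6%), without Kat6a. No paired analysis was possible because there is 1 library per target and line and no test. Depth is unknown, so a missing peak shows only that none was called.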
